A study of Rattus norvegicus with 24 samples.

Results

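The genes described here encode the subunits of integrins and laminins. An exception is Itgbl1, which matched by name and is counted with the integrin genes. Its product is a secreted protein with integrin-like repeats and not a subunit. Members were all genes of the deposited count files whose symbol begins with Itga or Itgb followed by its subunit letters or numbers, or with Lama, Lamb or Lamc followed by a number, and that had at least 1 unique molecular identifier (UMI, a tag that counts an RNA molecule once) in a cell that passed quality control. Of 32881 genes shared by all files, 36 matched by name and 35 qualified, 26 integrin and 9 laminin genes. Lamc3 had 0 UMIs and was the gene left out. The genes Itgb1bp1 and Itgb3bp, whose products bind integrins, are not subunits and were not counted as members.

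Integrins are cell surface receptors made of an alpha and a beta chain, and they tie the cytoskeleton to the matrix outside the cell. Laminins are trimers of an alpha, a beta and a gamma chain, and they are the main adhesive proteins of the basement membrane that surrounds Schwann cells and the satellite glia of the dorsal root ganglion (DRG). Growing axons of sensory neurons use laminin-binding integrins to advance on that membrane, and talin and kindlin proteins switch the receptors on from inside the cell.

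The study asked how DRG neurons respond to a spared nerve crush (SNC) in male Sprague-Dawley rats. The tibial and common peroneal branches of the left sciatic nerve were crushed and the sural branch was left intact. In sham rats the nerve was exposed without injury. Dyes had been injected into the nerve branches earlier, and lumbar DRG neurons that carried a dye were picked by mouth pipette, so the cells are a selection and not a random sample of the ganglion. Labelled neurons came from 16 DRG samples, 4 of them sham and 12 taken after SNC (4 on day 1, 3 on day 3 and 5 on day 7). They were sequenced in 17 libraries, of which 2 belong to the same DRG sample at 7 days and were summed. Crushed and spared neurons lie together in each sample taken after SNC, and sham samples hold neurons of the same branches without a crush. The dye of a single cell was not used here. The other 7 libraries, here called the added sham libraries, have a sham label with a time of 0, 1, 3 or 7 days and no dye.

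In all, 1433 of 1464 cells passed the limits (500 genes and 1000 UMIs or more, less than 5% mitochondrial counts), 930 of them dye-labelled and 503 from the added sham libraries. Labelled samples held 4002503 to 28975829 UMIs, and the median labelled neuron held 239286. A list of 7 neuron genes summed to between 9299 and 12085 CPM (UMIs of a gene per 1000000 UMIs) in the labelled samples. The 6 satellite glia markers summed to 41.2 to 1069 CPM, and they were highest in the sham sample Xin and in sample 17-1 at 1 day (810 CPM). Nothing in the labels says which samples came from separate rats, so p-values measure only the spread between samples. Whether samples 17-1 and 17-2, or 19-1 and 19-2, share animals is not given.

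The sequences upstream of 3 members are shown because the results turn on them. Itgb1 carried most of the integrin counts. Lama5 rose and Itgb6 fell with the level of Sprr1a, the gene used below to split the neurons, and both differed between the sham sets. Each line gives the 250 bases before the RefSeq transcript start in GRCr8, written 5′ to 3′ on the strand of the gene, with matches to GGGCGG on either strand in capitals. The Itgb1 sequence lies at chr19:73602027-73602276 on the plus strand, that of Lama5 at chr3:187695975-187696224 on the minus strand, and that of Itgb6 at chr3:65530334-65530583 on the minus strand. The Itgb6 gene record extends upstream of this start.
Itgb1: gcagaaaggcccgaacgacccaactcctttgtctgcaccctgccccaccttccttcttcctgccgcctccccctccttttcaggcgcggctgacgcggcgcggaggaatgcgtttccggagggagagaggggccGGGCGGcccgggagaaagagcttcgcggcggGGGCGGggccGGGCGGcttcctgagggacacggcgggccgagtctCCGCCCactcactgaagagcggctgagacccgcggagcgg
Lama5: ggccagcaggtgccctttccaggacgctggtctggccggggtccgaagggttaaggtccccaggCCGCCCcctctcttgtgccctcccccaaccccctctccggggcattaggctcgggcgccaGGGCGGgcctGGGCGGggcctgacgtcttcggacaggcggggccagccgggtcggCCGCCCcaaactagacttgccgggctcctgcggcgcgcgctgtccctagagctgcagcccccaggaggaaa
Itgb6: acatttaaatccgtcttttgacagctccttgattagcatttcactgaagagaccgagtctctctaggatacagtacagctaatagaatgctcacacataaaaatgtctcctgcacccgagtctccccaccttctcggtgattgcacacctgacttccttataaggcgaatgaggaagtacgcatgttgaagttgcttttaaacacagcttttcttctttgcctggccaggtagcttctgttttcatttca

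The sequences differed in base composition. The window of Itgb1 was 71.2% G and C and that of Lama5 72.8%, with 4 matches to the GC box GGGCGG in each. The window of Itgb6 was 43.2% G and C with no match, against a median of 51.2% over all 33469 promoters of the table. Promoters of 27 members were in the table, not those of Itga6 and Itga7. Of these 27, 14 held GGGCGG on either strand, against 30.5% of all promoters. TGANTCA, the letters bound by AP-1 factors, was found in 1 member promoter, that of Itgax, against 6.34% of all promoters. TATAAA was found in 2, those of Itgb7 and Lama4, against 12.9%. No motif of the 3 contains another, and a match describes the window only.

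Among the beta chains, Itgb1 stood far above the rest. Its product is the partner shared by the receptors for laminin, collagen and fibronectin. Over the 16 labelled samples its level ran from 242 to 532 CPM with a median of 360 CPM, a mean of 356 ± 72.2 CPM (SD, n = 16). It made up 58.3% ± 7.11 of all integrin counts and lay above 97.5% of the genes with a UMI in these neurons. A UMI of Itgb1 was found in 99.5% of labelled cells.

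The 3 alpha chains that bind laminin followed. Itga7 averaged 72.5 ± 23.5 CPM, with a range of 43.5 to 126 CPM over the samples. Itga6 averaged 63.7 ± 21.3 CPM, with a range of 31.5 to 100.3 CPM. Itga3 averaged 48.4 ± 12.8 CPM, with a range of 24.5 to 71.9 CPM. The means of Itga7 and Itga3 lay within 1 SD of that of Itga6, and 72.0% of labelled cells held a UMI of all 3. Each count is a tag from the 3′ end of a molecule, so these levels compare molecules between genes without a correction for length.

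Itgae encodes the alpha chain that leukocytes use to bind E-cadherin, together with the beta chain of Itgb7. Itgae averaged 41.7 ± 7.41 CPM and ranged from 32.2 to 64.8 CPM. Itgb7 had 7 UMIs in all labelled cells. In the GRCr8 annotation the gene Haspin overlaps Itgae and Mettl7b overlaps Itga7, and the strand used in counting is not given in the sources used here, so reads of these neighbours cannot be separated from those of the 2 members.

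Laminin genes were lower. They summed to 56.3 ± 14.6 CPM against 608 ± 81.4 CPM for the integrin genes (n = 16 samples). Lamc1, the gamma chain of most basement membrane laminins, averaged 19.0 ± 3.76 CPM, Lamb1, its usual beta partner, 12.7 ± 7.85 CPM, and Lama5, the alpha chain of the trimer typical of adult basement membranes, 9.72 ± 4.27 CPM. These 3 chains can form a trimer together, and 24.9% of labelled cells held a UMI of each. Of the remaining members, Itgb6 also lay between 5 and 20 CPM, 9 lay between 1 and 5 CPM and 16 below 1 CPM. Values of laminin chains and of members under 20 CPM are named here and below after they had been seen.

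The labelled neurons fell into 10 clusters when the members were left out of the genes used for clustering. Clusters were named only from marker lists: PEP1-like, PEP2-like and PEP3-like peptidergic nociceptors, which carry pain signals and release peptides, NF-like neurons with neurofilament genes (clusters 3 and 4), NP-like nonpeptidergic nociceptors, SST-like itch neurons (clusters 5 and 7) and COLD-like neurons. Cluster 8 was led by glial markers and is called the glial-marker cluster. Haemoglobin genes led cluster 5, and clusters 3 and 7 also held markers of other types, so these names are working names. Levels by cluster are the mean over samples that had 3 or more such cells, as CPM without TMM scaling. They describe clusters made from the same cells, and no test was run on them.

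Itga7 varied most among the 5 members above 20 CPM, by 13.0 times between the highest and the lowest neuron type. It reached 152 ± 36.9 CPM (n = 12 samples) in NF-like cluster 3 and 133 ± 47.9 CPM (n = 15) in NF-like cluster 4, which did not differ beyond their spread. It was 71.9 ± 11.4 CPM (n = 8) in SST-like cluster 7, 57.6 ± 42.2 CPM (n = 8) in NP-like and 43.1 ± 20.1 CPM (n = 12) in SST-like cluster 5 neurons. All 3 PEP-like types were lower, at 34.1 ± 14.6, 18.3 ± 10.8 and 11.7 ± 6.53 CPM in PEP2-like, PEP1-like and PEP3-like neurons. The lowest sample of NF-like cluster 3, at 89.2 CPM, lay above the highest sample of every PEP-like type.

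The other laminin-binding chains followed other orders. Itga6 was highest in NF-like cluster 3 (97.3 ± 53.6 CPM) and PEP1-like neurons (80.6 ± 25.9 CPM), within their spread of each other, and lowest in COLD-like neurons (30.5 ± 12.3 CPM, n = 5). NF-like cluster 4, which matched cluster 3 in Itga7, held 34.8 ± 12.7 CPM of Itga6. Itga3 was highest in SST-like cluster 7 (67.0 ± 14.0 CPM) and NF-like cluster 3 (65.5 ± 32.0 CPM) and lowest in PEP3-like neurons (27.8 ± 11.3 CPM). Itgae reached 65.8 ± 18.4 CPM in NF-like cluster 3, more than 1 SD above the 42.1 ± 15.0 CPM of NF-like cluster 4, and lay between 29.7 and 38.4 CPM in the other types.

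Itgb1 varied least of these 5. It ranged from 403 ± 81.7 CPM in COLD-like neurons through 392 ± 63.0 CPM in PEP1-like and 391 ± 75.7 CPM in NF-like cluster 3 neurons to 195 ± 23.3 CPM in SST-like cluster 7, a ratio of 2.07. SST-like cluster 7 therefore held the lowest Itgb1 and the highest Itga3. Itgb6, a beta chain that pairs with the alpha chain of Itgav and activates latent TGF-beta, averaged 14.7 ± 23.1 and 14.9 ± 18.1 CPM in the NF-like clusters, where samples ran from 0 to 65.3 CPM, and at most 4.99 ± 2.67 CPM in the other neuron types. Itgbl1, which encodes a secreted protein with integrin-like repeats, was highest in PEP1-like neurons at 6.42 ± 3.81 CPM.

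Laminin chains split the peptidergic types. Lamb1 was 25.3 ± 9.81 CPM in PEP3-like (n = 11) and 17.8 ± 15.8 CPM in PEP1-like neurons but 2.05 ± 2.60 CPM in PEP2-like neurons, and it was lowest in NP-like neurons at 1.11 ± 1.08 CPM. Lama4, an alpha chain of vessel and nerve basement membranes, was 12.3 ± 5.29 CPM in PEP3-like neurons, more than 1 SD above PEP1-like neurons at 5.76 ± 3.02 CPM. Lama5 was 14.8 ± 10.6 CPM in NF-like cluster 4 and 12.4 ± 8.78 CPM in PEP1-like neurons, and about 1 CPM in NP-like (1.01 ± 0.928 CPM) and SST-like cluster 7 neurons (0.919 ± 0.720 CPM). Lamc1 varied little, between 14.2 and 27.1 CPM in every neuron type, a ratio of 1.91.

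Of the 25 members that reached 1 CPM in a neuron type, 15 were highest in an NF-like cluster, 8 in cluster 3 and 7 in cluster 4. Only for Itgae and Lama4 did the highest type exceed the next by more than 1 SD. NF-like neurons also held the most UMIs per cell, a median of 526885 in cluster 3 and 458048 in cluster 4 against 151564 in PEP2-like neurons. The heat map of members by cluster shows these orders.

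**Figure D1:**
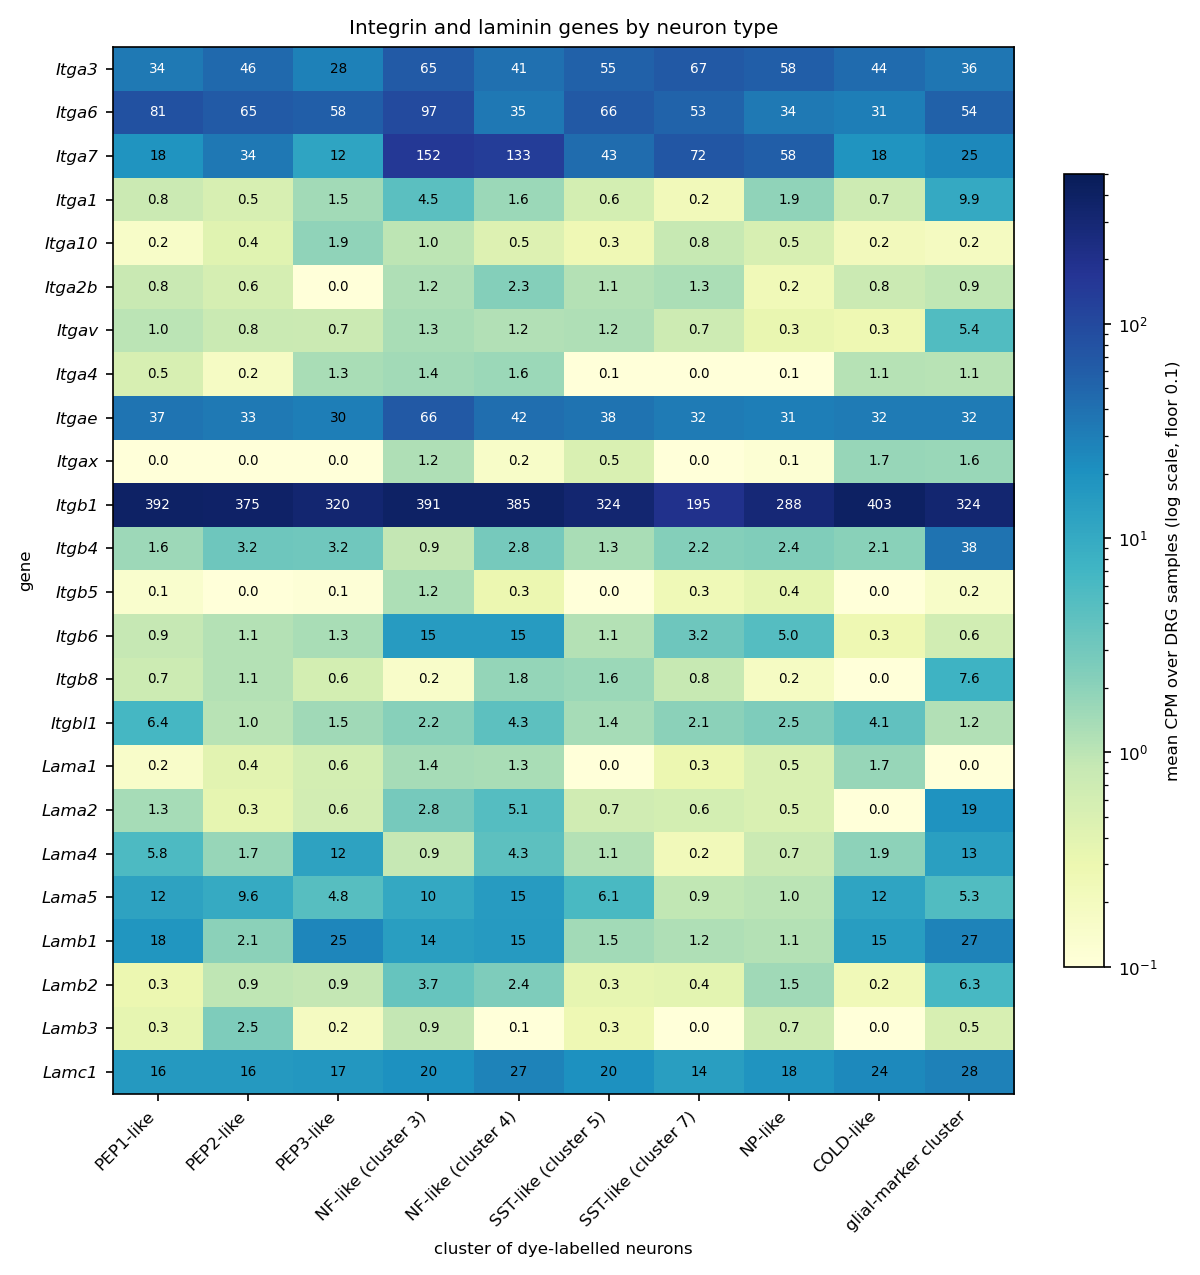
Heat map of the mean CPM over DRG samples of members that reached at least 1 CPM in a neuron type, by cluster of dye-labelled neurons (colour on a log scale with a floor of 0.1 CPM, the number in each cell is the mean). Itga7 stands at 152 and 133 CPM in the NF-like clusters, and Itgb4 and Lama2 are highest in the glial-marker cluster.

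The glial-marker cluster held 42 labelled cells and stood above every neuron type for 13 members. Itgb4, a beta chain that pairs with the alpha chain of Itga6 and is known from Schwann cells, was 37.8 ± 11.7 CPM there (n = 7 samples) and at most 3.23 ± 5.03 CPM in a neuron type. Lama2, the alpha chain of the Schwann cell basement membrane, was 18.8 ± 4.85 CPM there against at most 5.06 ± 3.74 CPM. Itgav and Itgb8 were also at least 3 times the highest neuron type, at 5.38 ± 6.81 and 7.64 ± 9.23 CPM. Cells of this cluster made up 29.2% of sham sample Xin and 12.5% of sample 17-1, and at most 6.25% of any other labelled sample.

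To compare neurons with more and with less of an injury gene, cells were split by Sprr1a. It codes for a small proline-rich protein and rises in sensory neurons after axon injury. Neurons with at least 100 CPM of Sprr1a were called Sprr1a-high and the others Sprr1a-low. Of the low neurons, 235 held 10 to under 100 CPM of Sprr1a, so low does not mean absent. There were 413 high and 517 low neurons in the 16 labelled samples, and 78 of the high cells came from sham samples. High neurons made up 36.3% of sham neurons and 43.3%, 43.0% and 54.2% at 1, 3 and 7 days. Sprr1a averaged 161 ± 113 CPM in sham samples and 164 ± 48.9, 146 ± 22.5 and 147 ± 58.5 CPM at these times. The split is therefore not one of SNC against sham. Counts were summed by sample and level and compared with the quasi-likelihood test of edgeR with the sample as a block. Sums over cells cannot tell fewer cells of a type from less RNA per cell.

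Of the 28 members that passed the filter on low counts, 6 were called at an adjusted p under 0.05, 5 higher and 1 lower in Sprr1a-high neurons. The share of all 14422 genes called was 28.2%, of which 14.4% were higher and 13.9% lower, so the 21.4% of members called is below that background and the number of calls is no result about the members as a set. The median log2 fold change was 0.16 over the members and 0.00 over all genes.

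Itgb1 was higher in Sprr1a-high neurons in 14 of 16 samples. High neurons ranged from 286 to 525 CPM with a median of 402 CPM, and low neurons from 192 to 493 CPM with a median of 307 CPM. The ranges overlapped, and samples 8 and 9 at 7 days went the other way. The log2 fold change was 0.31 ± 0.05 (SE), 1.24 times, with an adjusted p of 0.000183 by edgeR.

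Itga6 was higher in 15 of 16 samples, all except sample 9 at 7 days. High neurons ranged from 31.1 to 134 CPM with a median of 80.4 CPM, and low neurons from 28.9 to 81.1 CPM with a median of 53.4 CPM. The log2 fold change was 0.53 ± 0.11, with an adjusted p of 0.00117. The other laminin-binding chains were at 0.03 ± 0.15 for Itga7 and -0.04 ± 0.08 for Itga3, neither of which passed the test.

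Lama5 was the laminin gene called. High neurons ran from 7.87 to 32.2 CPM with a median of 13.2 CPM, and low neurons from 2.40 to 30.2 CPM with a median of 4.71 CPM. It was higher in 14 of 16 samples, and most low values lay below every high value. The exceptions were sham sample Xin, with 8.05 CPM in high and 30.2 CPM in low neurons, and sample 17-1, with 17.3 and 18.3 CPM. These samples have the largest share of the glial-marker cluster, which itself held 5.33 ± 3.93 CPM of Lama5 (n = 7 samples). In Xin 19 of 24 neurons were Sprr1a-high, so its low value rests on few cells. The cause of these exceptions was not tested. The log2 fold change was 1.25 ± 0.25, with an adjusted p of 0.000688.

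Itgb6 was the member that fell. High neurons held 0 to 6.54 CPM with a median of 1.42 CPM, and low neurons 0 to 29.8 CPM with a median of 4.92 CPM. It was lower in 14 of 16 samples, listed at 0 on both sides in sample Xin, and higher only in sample 8, at 6.54 against 4.00 CPM. The log2 fold change was -1.86 ± 0.35, with an adjusted p of 0.000479.

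The last 2 calls were of sparse genes. Itga2b, the alpha chain known from platelets, had a median of 1.34 CPM in high and 0.696 CPM in low neurons, with a log2 fold change of 0.96 ± 0.33 and an adjusted p of 0.0324. Itgbl1 had medians of 3.14 and 1.85 CPM, with 0.86 ± 0.30 and an adjusted p of 0.0349. Neither call held in every set of samples. Itga2b passed the threshold no longer without sample 10, 17-2, 18, 19-1, 19-2, 9 or S, each left out alone (adjusted p 0.0520 to 0.0773), and Itgbl1 no longer without sample 14, 15, 16, 17-1, 17-3, 18, 9 or S (adjusted p 0.0509 to 0.0839). The other 4 calls held in all 16 such fits. DESeq2 called 8 of 28 members and 32.6% of 14422 genes. In the 4 sham samples alone no member of 19 was called, and 257 of 12826 genes were (2%). The plot of paired levels shows each sample.

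**Figure D2:**
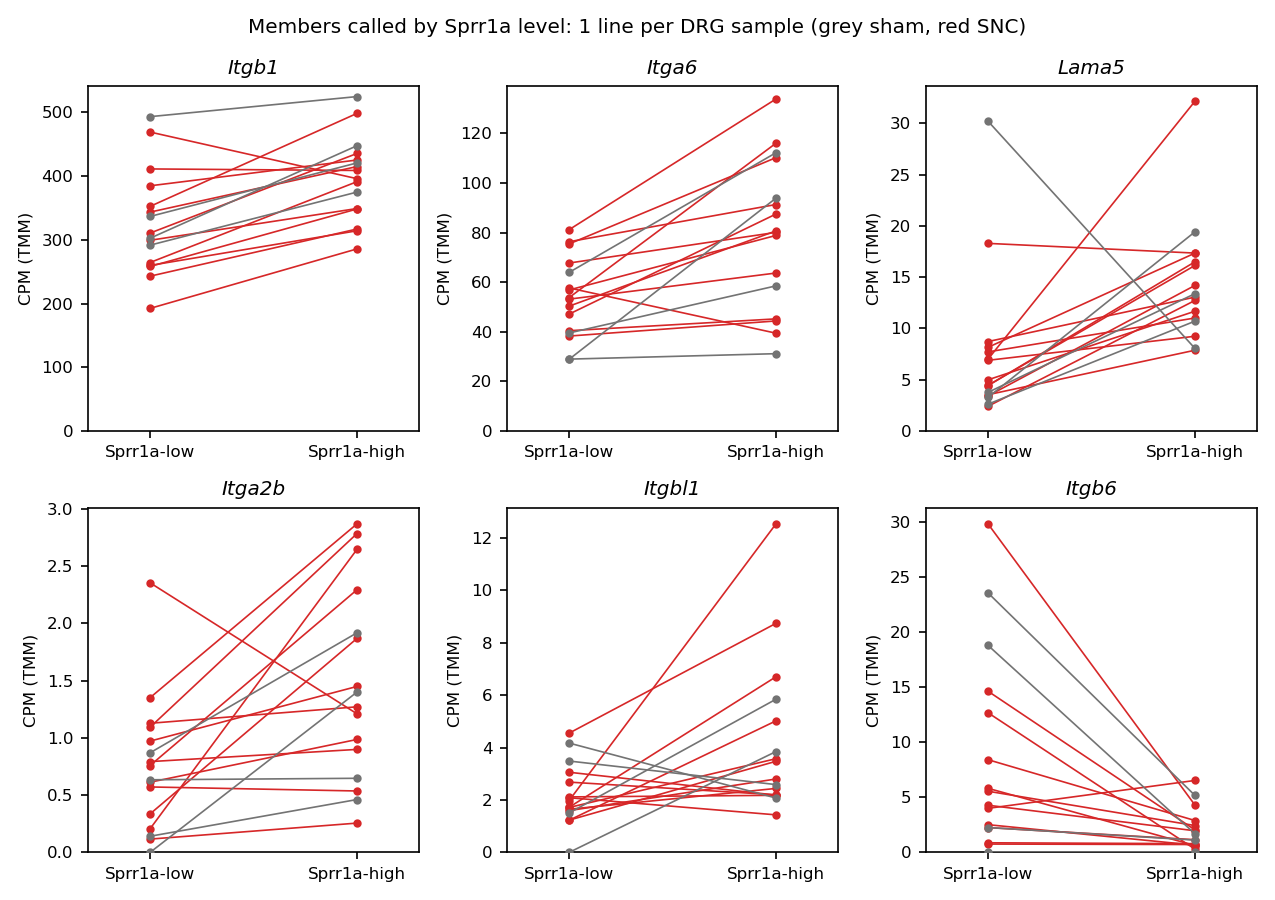
Level in CPM (TMM-scaled, linear axes from 0) of the 6 members called by Sprr1a level, with 1 line per DRG sample joining its Sprr1a-low and Sprr1a-high neurons (grey for sham, red for SNC). Lines rise in 14 of 16 samples for Itgb1 and in 15 for Itga6, and fall in 14 for Itgb6.

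Whether the difference was larger after SNC than in sham was tested with an interaction term. No member of 28 was called by edgeR, none had an unadjusted p under 0.05, and no gene of 14422 was called (0% called, 4.62% at an unadjusted p under 0.05). Lama5 was higher in 11 of 12 samples after SNC and in 3 of 4 sham samples, Itgb1 in 10 of 12 and in 4 of 4, and Itga6 in 11 of 12 and in 4 of 4.

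The level of Sprr1a goes together with neuron type. PEP1-like and PEP2-like neurons made up 32.9% and 31.7% of Sprr1a-high cells and 9.67% and 10.4% of low cells. PEP3-like and NP-like neurons made up 1.21% and 0.726% of high cells and 21.3% and 12.6% of low cells. The Schwann cell markers summed higher in high neurons in 14 of 16 samples (median 975 against 863 CPM) and the satellite glia markers in 7 of 16 (median 155 against 161 CPM). Beyond a fit without the glial-marker cluster, the part of these markers in the result was not tested.

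When the cluster, as a stand-in for neuron type, was held fixed, no member was called. This fit used 29 pairs of sample and neuron type from 12 samples, 248 high and 156 low cells, most of them in PEP1-like (8 pairs), PEP2-like (9 pairs) and NF-like cluster 3 neurons (6 pairs). Pairs from the same sample count as separate in it, so its p-values can be too small. Only the members were left out of the genes used for clustering, so Sprr1a could take part in making the clusters. Of PEP1-like and PEP2-like neurons, 73.1% and 70.8% were Sprr1a-high. Holding the cluster fixed may therefore also hold part of the Sprr1a level fixed. Of 18 members tested, 0 were called by edgeR and 0 by DESeq2, against 4.56% of 12318 genes by edgeR (3.26% higher and 1.3% lower). At an unadjusted p under 0.05 there was 1 member, Lama5, against 15.6% of genes. Lama5 averaged 11.7 ± 8.31 CPM in high and 8.61 ± 7.74 CPM in low neurons over the pairs and was higher in 22 of 29. Its log2 fold change was 0.62 ± 0.28, with an adjusted p of 0.240 by edgeR.

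The 5 called members that could be tested within types, all but Itga2b, lay nearer 0 there. Itgb1 was at 0.06 ± 0.07 within types, with means of 416 ± 83.1 and 403 ± 104 CPM and a higher value in 17 of 29 pairs. Itga6 was at 0.21 ± 0.13, with 84.6 ± 46.9 and 73.7 ± 38.5 CPM. Itgb6 was at -1.20 ± 0.64, although it was higher in 11 pairs and lower in 9, and Itgbl1 at 0.48 ± 0.42. Whether these changes differ between the 2 fits was not tested, and the fits share cells. With Sprr1a-high set at 50 CPM, Itga6 was called within types (0.59, adjusted p 0.0157). The plot of both fits sets the values side by side.

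**Figure D3:**
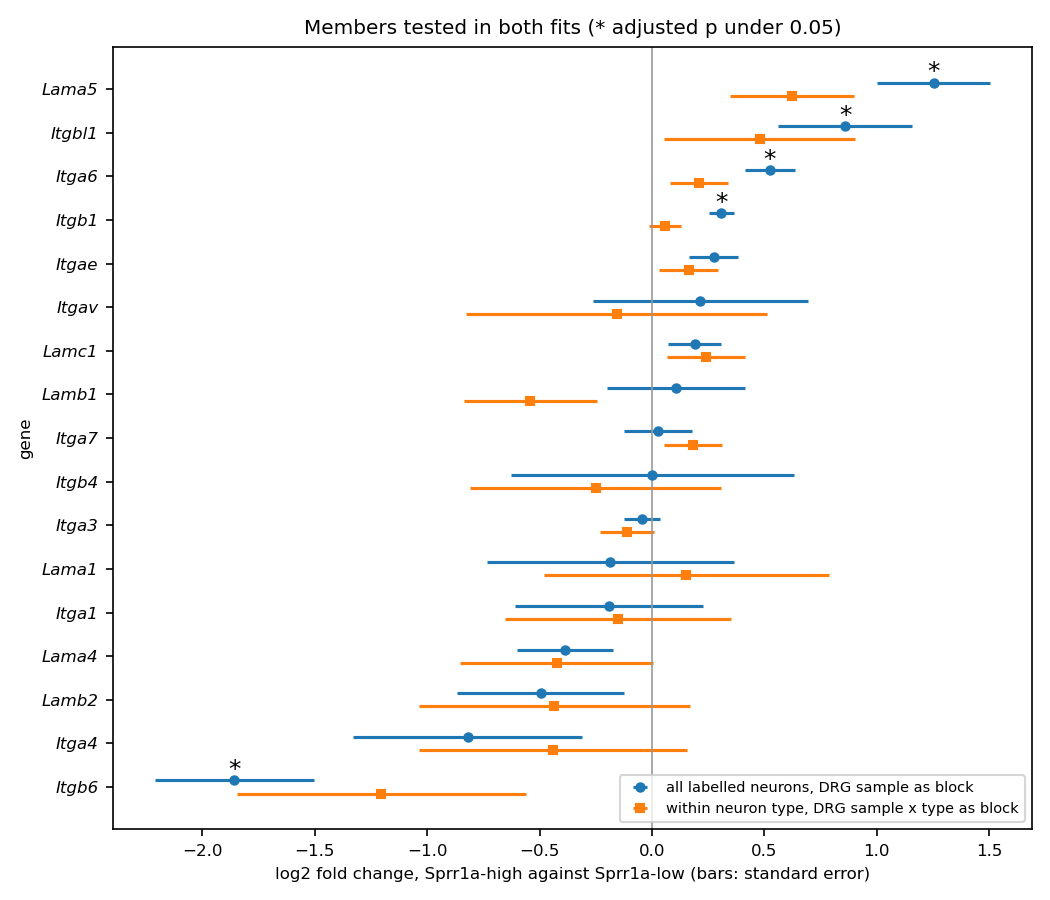
Log2 fold change of Sprr1a-high against Sprr1a-low neurons for 17 of the 18 members tested in both fits, over all labelled neurons (circles) and within neuron types (squares), with standard errors as bars. Stars mark an adjusted p under 0.05. All stars belong to circles, and Itgb1 lies at 0.31 over all neurons and at 0.06 within types.

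The level of Sprr1a in 4 steps showed where the members differed. Itgb1 averaged 286 CPM in neurons under 10 CPM of Sprr1a, 381 CPM from 10 to under 100, 385 CPM from 100 to under 500 and 416 CPM from 500 CPM. Lama5 averaged 3.12, 10.1, 14.3 and 9.51 CPM over the same steps, and Itgb6 11.6, 7.16, 2.08 and 0.41 CPM. Itga7 averaged 56.6, 82.8, 79.4 and 36.8 CPM, highest in the middle steps. These are means over 13 to 16 samples and describe the same split, with no test.

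Integrins act through proteins at the inner face of the membrane, and an adhesion list of 24 genes was read beside the members. Besides genes of such proteins it holds the laminin receptor genes Dag1 and Bcam and the membrane protein genes Cd9 and Cd151. By Sprr1a level, 11 of the 22 tested were called, 8 higher and 3 lower, against 28.2% of all genes. Tln1, the main talin that activates integrins, rose by 0.68 ± 0.07 (log2), and Tln2, its paralogue, fell by 0.59 ± 0.08. Lims1, part of the complex that links integrins to actin, rose by 0.69 ± 0.09, the kinase gene Src rose by 0.88 ± 0.13 and Parvb, which belongs to the same complex, fell by 0.55 ± 0.07. Within neuron types 3 of 19 were called, against 4.56% of all genes, in the fit that counts pairs from the same sample as separate. Tln1 was at 0.37 ± 0.07 (adjusted p 0.000588), Src at 0.68 ± 0.15 (adjusted p 0.00442) and Tln2 at -0.36 ± 0.09 (adjusted p 0.00967), in the directions seen over all neurons. Of 10 other basement membrane genes, 6 were tested by Sprr1a level and 2 were called over all neurons, Col4a4, a collagen IV chain, at -1.65 ± 0.42 and Agrn, which codes for agrin, at 0.25 ± 0.09. None of the 5 tested within types was called.

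The comparison of SNC with sham over all labelled neurons gave no call. Of 26 members tested at 1, 3 and 7 days, 0 were called by edgeR at each time, and none of 14239 genes were (0% called). DESeq2 also called 0 members at each time, and 9, 1 and 0 genes. At an unadjusted p under 0.05, members numbered 4 at 1 day, 3 at 3 days and 2 at 7 days, against 8.73%, 4.17% and 3.34% of genes. The design has 3 to 5 samples a group, and the spread between them limits what can be seen. Sham samples Xin, 4 and 10 were reverse-transcribed in 2019. Sham sample 18 and all samples at 1 and 3 days were reverse-transcribed in 2020. Group and year can therefore hardly be told apart at 1 and 3 days.

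At 1 day, Lamb1 held 9.60, 11.4, 30.2 and 31.5 CPM in samples 13, 16, 17-1 and 17-2, against 14.3, 13.5, 4.17 and 5.91 CPM in sham samples 10, 18, 4 and Xin. The high values are those of samples 17-1 and 17-2, and the other values overlap sham. The log2 fold change was 1.09 ± 0.45, with an unadjusted p of 0.0272 and an adjusted p of 0.539 by edgeR. Lama5 held 7.54, 9.22, 17.7 and 20.0 CPM in the same samples at 1 day against 6.80, 6.10, 5.52 and 13.2 CPM in sham. Samples 17-1 and 17-2 were again the high ones, and the log2 fold change was 0.81 ± 0.36 with an adjusted p of 0.568. The satellite glia markers of these 2 samples summed to 810 and 376 CPM against 157 and 138 CPM in samples 13 and 16. The glial-marker cluster held 26.9 ± 18.7 CPM of Lamb1 and 5.33 ± 3.93 CPM of Lama5. Samples 17-1 and 17-2 shared a date of reverse transcription with sample 17-3 (3 days) and samples 19-1 and 19-2 (7 days). Those held 9.07, 11.6 and 9.49 CPM of Lamb1 and 10.1, 6.14 and 7.82 CPM of Lama5. The fits by group were also run with the date as a block and without the glial-marker cluster. Over 8 alternative settings the log2 fold change of Lamb1 at 1 day ran from 0.73 to 1.51. That of Lama5 ran from 0.63 to 2.04 over 7 settings. Beyond such fits, the part of the date or of glia in these levels was not tested.

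At 3 days, Itga6 held 100.3, 93.7 and 64.0 CPM in samples 14, 15 and 17-3, against 49.1, 76.3, 37.9 and 31.5 CPM in sham samples 10, 18, 4 and Xin. Sample 17-3 lay below sham sample 18, the sham sample of 2020, so the groups overlapped. The log2 fold change was 0.81 ± 0.30, with an unadjusted p of 0.0161 and an adjusted p of 0.966 by edgeR. Itga5, an alpha chain that binds fibronectin, was at -2.40 ± 1.01 from 7 UMIs at 3 days and 40 in sham.

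Itgb2, the beta chain of leukocyte integrins, rested on few cells. It had 34 UMIs at 1 day, from 6 cells, and 35 at 3 days, from 5 cells, against 2 UMIs from 1 cell in sham. Per UMI sequenced this was 13.3 times sham at 1 day (95% counting interval 3.40 to 114) and 15.5 times at 3 days (3.98 to 133), and counting error is all that these intervals cover. Sample 16 gave 26 of the 34 UMIs and sample 15 gave 29 of the 35. The 7 macrophage markers summed to 10.7 to 33.8 CPM in sham, 11.7 to 22.7 CPM at 1 day and 8.90 to 15.8 CPM at 3 days, and overlapped between the groups.

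Itgav, an alpha chain that binds vitronectin, was at -1.85 ± 0.86 at 1 day and -1.83 ± 0.80 at 7 days, and Itgb4 was at -1.73 ± 0.71 at 7 days. Both rested on sham sample Xin. Itgav held 10.1 CPM there and 0.584 to 2.40 CPM in the other sham samples, against 0.673 to 1.35 CPM at 1 day and 0 to 1.79 CPM at 7 days. Itgb4 held 22.8 CPM in Xin and 1.18 to 5.55 CPM in the other sham samples, against 1.19 to 3.16 CPM at 7 days. Without Xin, the log2 fold changes were -0.56 and -0.54 for Itgav and -0.43 for Itgb4. Itgav at 1 day was at 0.40 with the year and at 1.37 with the date of reverse transcription in the fit, and Itgb4 at 7 days at 0.17 with the date.

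None of the abundant members was called at any time. Itgb1 averaged 393 ± 96.3 CPM in sham (n = 4), 310 ± 13.7 at 1 day (n = 4), 383 ± 14.6 at 3 days (n = 3) and 346 ± 90.6 at 7 days (n = 5). Itga7 averaged 56.2 ± 13.0, 83.5 ± 25.7, 72.8 ± 11.0 and 76.7 ± 31.4 CPM over the same groups, and Itga3 39.2 ± 16.5, 56.3 ± 13.2, 53.6 ± 4.87 and 46.2 ± 9.48 CPM. Itgae averaged 36.9 ± 3.49, 41.0 ± 2.00, 45.4 ± 2.24 and 43.8 ± 12.3 CPM. All 3 samples at 3 days lay above every sham sample for Itgae, at a log2 fold change of 0.30 with an adjusted p of 0.966. None of these 4 genes had an unadjusted p under 0.05 at any time. The plot of levels by group shows each sample.

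**Figure D4:**
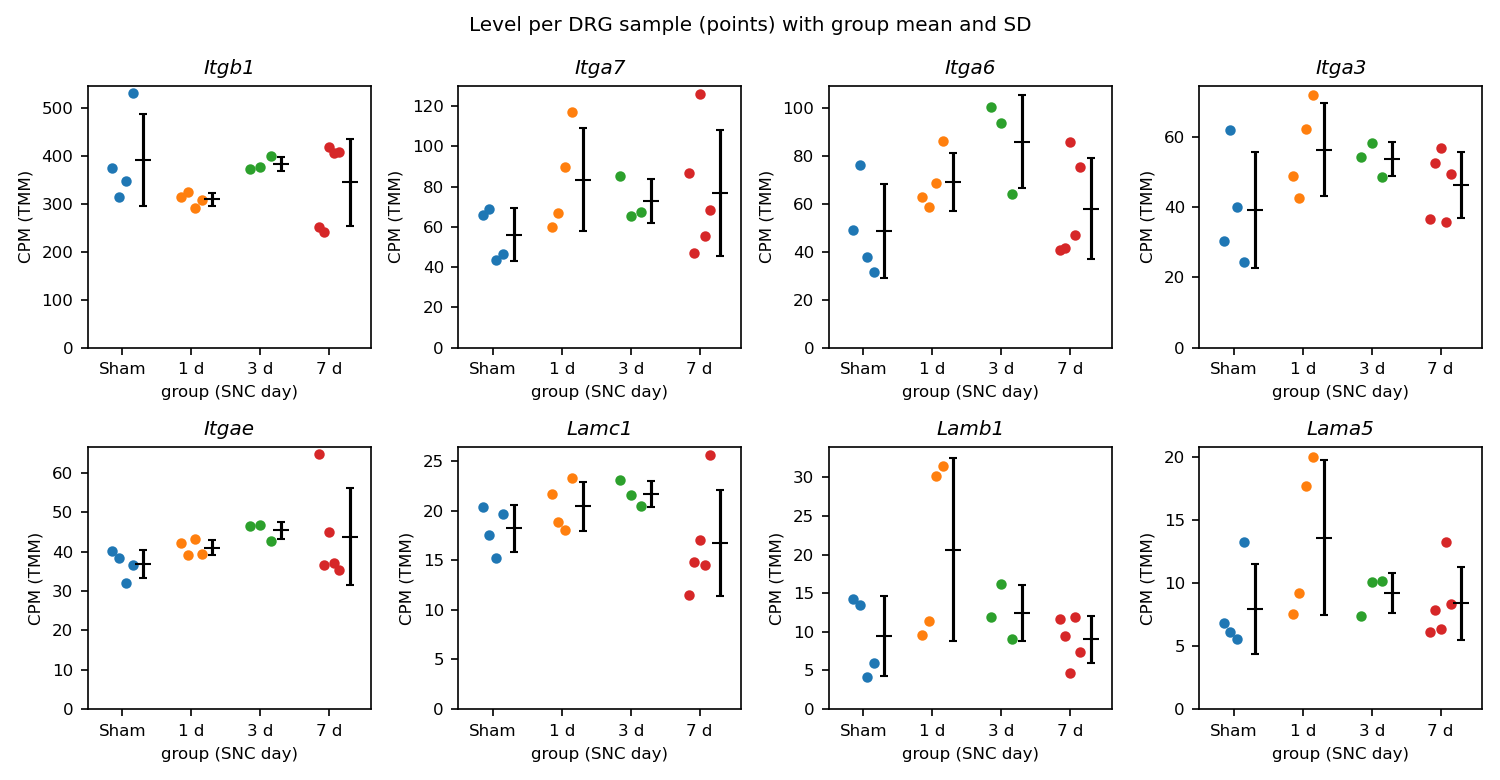
Level in CPM (TMM-scaled, linear axes from 0) of 8 members in each DRG sample (points) by group, with the group mean and SD as bars. SNC groups overlap sham for Itgb1, Itga7 and Itga3, and samples 17-1 and 17-2 are the upper pair of points at 1 day for Lamb1 and Lama5.

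In PEP1-like neurons alone, 11 members could be tested. None was called by edgeR or DESeq2 at 1, 3 or 7 days, and none had an unadjusted p under 0.05, against 10.6%, 6.23% and 4.77% of 10613 genes. At an adjusted p under 0.05 the share of genes was 0.00942% at 1 and 3 days, 1 gene each, and 0% at 7 days. Lamb1 at 1 day came nearest, at 1.19 ± 0.60 with an unadjusted p of 0.0603 by edgeR, and Itgb1 was at -0.18 ± 0.17. No gene of the adhesion list or of the basement membrane list was called at any time, over all labelled neurons or in PEP1-like neurons.

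A pair of libraries at 7 days differs in the make-up of its cells. By their labels library 19-1 held 4 indirectly and 20 directly injured neurons, and 19-2 held 20 and 4. With 1 library each there is no test, and the exact Poisson intervals (95%) cover counting error only. Among members whose intervals were apart, Itga3 was higher in 19-2 and the others were higher in 19-1. The share of all genes with intervals apart was not computed. The number and direction of these members are therefore no result about the members as a set. Itgb6 was 26.3 CPM (23.1 to 29.8) in 19-1 and 0.84 CPM (0.363 to 1.65) in 19-2, Itga7 88.2 CPM (82.3 to 94.4) and 47.1 CPM (42.9 to 51.7), and Itgae 65.8 CPM (60.7 to 71.2) and 37.0 CPM (33.2 to 41.0). Itga3 was 37.3 CPM (33.5 to 41.4) in 19-1 and 52.8 CPM (48.3 to 57.6) in 19-2. Itgb1, at 256 and 243 CPM, and Itga6, at 41.4 and 41.8 CPM, had overlapping intervals. Library 19-1 held 6 neurons of NF-like cluster 3, the type highest in Itga7 and Itgae, and 19-2 held 0. Which library holds more crushed neurons rests on these labels, since the study's text names either dye for the crushed branches. Sprr1a-high neurons were fewer in the library labelled as mostly directly injured, 20.8% of 19-1 against 58.3% of 19-2.

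The added sham libraries were set against the 4 labelled sham samples in a comparison chosen after seeing the data. Of 32 members tested, 10 were called, 8 higher and 2 lower in the added libraries, a share of 31.25% against 40.6% of all 15791 genes (24.2% higher and 16.5% lower). At an unadjusted p under 0.05 there were 14 members, against 49.5% of genes. The number of calls is thus below the background here too. The median log2 fold change over all genes was 0.15 in this fit, so changes of that size are within the shift of the scale. Dye labelling, library set and the mix of neuron types differ together between the sets and cannot be told apart in the full comparison.

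Itga7 was the clearest case. It held 97.9 to 133 CPM in the 7 added libraries (median 118) against 44.7 to 73.8 CPM in labelled sham, with no overlap, and the log2 fold change was 1.00 ± 0.16 (adjusted p 0.000411). Itga3 held 51.2 to 97.4 CPM against 24.3 to 66.4 CPM, with some overlap, at 0.88 ± 0.26. Itgb1 was lower, at 257 to 362 CPM against 338 to 529 CPM with some overlap, at -0.45 ± 0.14. Lama5 was also lower, at 0.808 to 2.83 CPM against 5.68 to 13.1 CPM with no overlap, at -2.21 ± 0.38 (adjusted p 0.000699).

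Itgb6 held 34.6 to 47.6 CPM in every added library and 0 to 21.5 CPM in labelled sham, at 2.00 ± 0.71. Lamc1 held 24.5 to 42.5 against 15.6 to 20.7 CPM, at 0.85 ± 0.19. For the sparse Itgb5, a beta chain that pairs with the alpha chain of Itgav, the labelled sham samples held 16 UMIs in all, and the change was 4.65 ± 0.94, with 30.5 CPM in 1 added library of day 3. Itga8, an alpha chain that binds nephronectin, was at 4.09 ± 1.05 and Itgax, a leukocyte alpha chain, at 2.94 ± 1.00.

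Calls of 3 of these genes depended on single libraries. Itga3 passed no longer without labelled sham sample 10, 4 or Xin (adjusted p 0.0822, 0.0539 and 0.0651). Itgax passed no longer without 10, 18, 4, Xin or the added library S1 (0.0520 to 0.0876), and Itgb6 no longer without 10 or the added library S3, S5, S6 or S7 (0.0539 to 0.0969). DESeq2 called 13 of 32 members and 45.8% of 15791 genes. The change of Itga8 was 5.84 without sample 10 and 3.50 without 18, that of Itgb5 was 3.70 without the added library S4, and that of Itgax was 2.24 without the added library S1. Of the adhesion list 11 of 21 tested were called, 6 higher and 5 lower, against 40.6% of all genes, with Tln1 at -1.29 and Parvb at 1.86. Of the basement membrane list 1 of 9 was called, Col4a3, a collagen IV chain, at 4.68.

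Markers of other cells differed between the sham sets too. The Schwann cell markers summed to 688 to 799 CPM in the added libraries and 861 to 1266 CPM in labelled sham, with no overlap. The fibroblast markers had a median of 37.8 CPM (6.93 to 46.3) against 9.45 CPM (2.99 to 15.5), and the satellite glia markers 434 CPM (35.0 to 598) against 219 CPM (129 to 1069). The 7 neuron genes summed to 7570 to 10195 CPM against 9807 to 12085 CPM. The part of these differences in the levels of the members was not tested.

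The added libraries held 2 PEP1-like and 8 PEP2-like neurons of 503, and 210 NP-like neurons. No added neuron reached 100 CPM of Sprr1a, and the highest held 7.54 CPM, whereas 36.3% of labelled sham neurons were Sprr1a-high. The planned comparison by Sprr1a level in the added libraries could therefore not be run. In NF-like neurons of both sets (40 labelled sham and 168 added cells) 5 of 29 members were called, against 33.3% of 14353 genes, among them Lama5 at -1.77 (adjusted p 0.0466) and Lamc1 at 0.94 (adjusted p 0.0104), and Itga7 was at 0.13 (adjusted p 0.615). In NP-like neurons (19 and 210 cells) Itga7 at 1.37, Itgb6 at 2.87, Itga3 at 0.79 and Itga8 were called, 4 of 17 members against 39.2% of 12632 genes. Itgb1 was at -0.02 there (adjusted p 0.914) and Lama5 at 0.40 (adjusted p 0.818). Itgb6 averaged 30.0 ± 10.1 CPM in NP-like neurons of the added libraries (n = 7) and 4.99 ± 2.67 CPM in all labelled NP-like neurons (n = 8 samples). The plot of both sham sets shows each library.

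**Figure D5:**
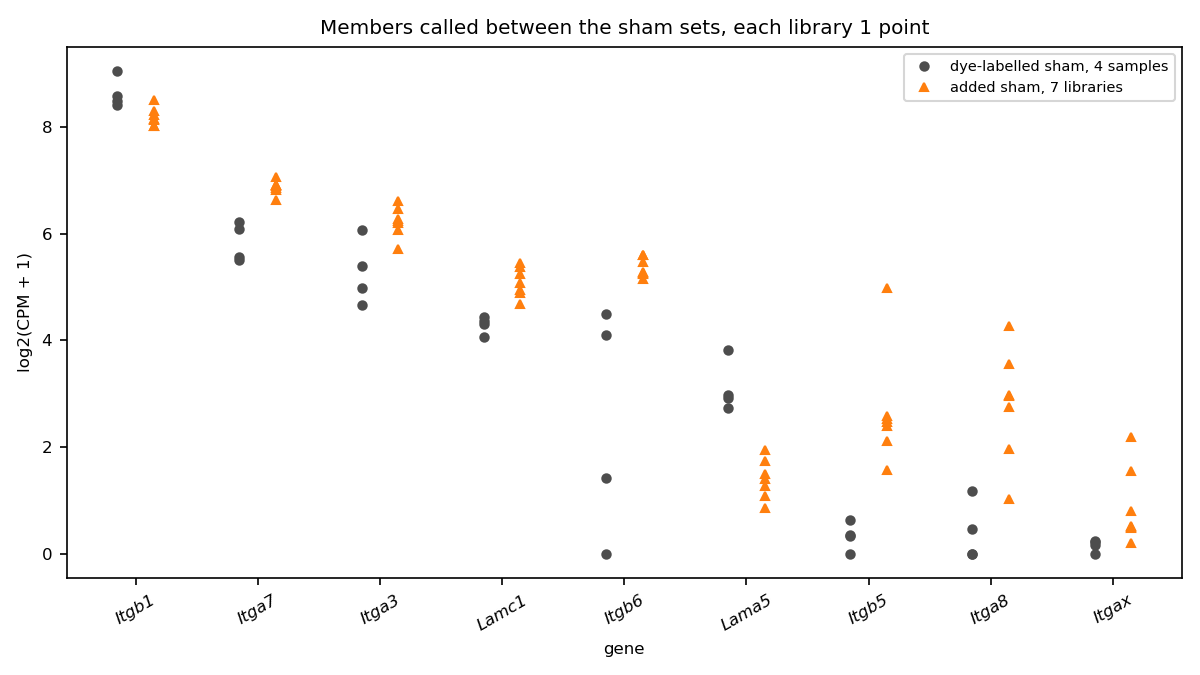
Level as log2(CPM + 1) of 9 of the 10 members called between the sham sets, with 1 point per library (circles for the 4 dye-labelled sham samples, triangles for the 7 added sham libraries). Itga7, Itgb6 and Lamc1 lie higher and Lama5 lower in every added library than in every labelled sham sample, and Itgb1 and Itga3 overlap.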

How the data were processed

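Single-cell RNA-seq counts of rat DRG neurons were analysed from 24 libraries. The deposited values are whole-number UMI counts per gene and cell, made by the authors with STAR, featureCounts and UMI-tools on Rnor_6.0 per the labels. The strand used in counting is not given in the sources used here. The submitters' processing notes also name SAMtools. Because each count is a 3′ tag of 1 molecule, amplification copies are removed but capture differences are not.

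A cell was kept if it held 500 genes and 1000 UMIs or more and less than 5% mitochondrial counts, and counts were summed by DRG sample. Sums were tested with the quasi-likelihood test of edgeR 4.0.16 (TMM scaling, filterByExpr, Benjamini-Hochberg adjustment over all genes, threshold 0.05, two-sided), with DESeq2 1.42.0 as an alternative. The comparison by Sprr1a level had the sample as a block, and that within types the pair of sample and type. Clusters were made with Seurat 5.3.0 (2000 variable genes without the 6 members among them, 40 components, resolution 0.5) on the labelled cells. Added cells were placed in the most similar labelled cluster, and 93.5% of labelled cells returned to their own cluster by this rule. No doublet caller was run, since cells were picked singly. R 4.3.3 and Python 3.11.15 were used. The edgeR fits by group (at 1 day), by Sprr1a level and between the sham sets were tested on simulated data first. The fits within types and in PEP1-like neurons, the interaction fit and the DESeq2 fits were not. Promoters came from RefSeq in GRCr8, which is not the build of the counts.

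Levels and folds were to be given for members with a mean of at least 20 CPM or at least 50 CPM in a type, and folds for called members or, with fewer than 3 calls, for those with an unadjusted p under 0.05. The members, lists and tests were chosen with earlier results of these data known. Alternatives changed the tool, scaling, filter on low counts, Sprr1a threshold, cells, depth (20000 UMIs per cell), reverse transcription batch and samples. Intervals at 95% cover counting error only. Values of 1 member are not reported here, although it is in the counts of members.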

Additional observations from a re-analysis of the deposited data

Results flagged for a closer look

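Of 76 groups of 4 to 10 samples tested for a single sample far from the others, 6 stood out, and chance alone flags about 1 in 20. Sham sample 18 held 0.0730 CPM of Itgb2 and the other sham samples 0, which is 2 UMIs. Sample 19-1 at 7 days held 2.29 CPM of Itgb5 and 25.9 CPM of Itgb6, where the nearest samples held 0.0796 and 5.65 CPM. The added library S4, of day 3, held 30.5 CPM of Itgb5 and the next 5.02 CPM. Sample 9 at 7 days held 6.88 CPM of Itgbl1 against 2.61 CPM in the next sample. Sham sample Xin held 13.2 CPM of Lama5 against 6.80 CPM in the next.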

How the results depend on the processing

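Counts of members called stayed within 1.5 times the reported count in 183 recomputed values, levels by type included, and not in 6. For most of these fits the share of all genes called is not given here. Their counts are therefore no result about the members as a set. By Sprr1a level, 2 members were called with cells thinned to 20000 UMIs (7 tested) and 0 with only sham samples, fewer genes or samples in both by construction. Within types, 1 was called with Sprr1a-high at 50 CPM, and the cause was not tested. Between the sham sets, 5 were called with only day-0 added libraries, 5 in NF-like and 4 in NP-like neurons, all with fewer samples or cells. Leaving out 1 sample gave 4 to 8 calls by Sprr1a level (4 without 18 or S, 8 without 4), 7 to 11 between the sham sets (7 without 10 or Xin, 11 without the added S4), and 0 to 0 between groups over all labelled and over PEP1-like neurons.

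Itgav at 1 day turned to 0.40 with the year and 1.37 with the date of reverse transcription in the fit, and Itgb4 at 7 days to 0.17 with the date. With Sprr1a-high at 200 CPM, Itgb6 turned to 0.78 and Lama5 to -0.094 within types, and Lama5 turned to 0.40 between the sham sets in NP-like neurons. The causes were not tested. Single genes kept direction and side of the threshold in 466 alternatives, no longer passed it in 57 and newly passed it in 1. Without the replicate block, 5 members were called by Sprr1a level, of 16 tested, and the share of all genes called in that fit is not given here. No paired analysis was possible by replicate number between groups because the labels carry none there. Blocking on the reverse transcription date, which ties some samples across groups, gave 0 members called at each time. The Sprr1a comparison planned for the added libraries was not run, since no cell there reached 100 CPM. Depth limits the 16 members under 1 CPM.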
